A study of Mus musculus with 8 samples.

Results

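The immunoproteasome subunit genes Psmb8, Psmb9 and Psmb10 and the proteasome activator genes Psme1 and Psme2 were followed across 4 groups of bead arrays. All probes whose platform gene symbol is one of these 5 genes were taken, which gave 7 of the 25697 probes on the array and 5 of its 16593 named genes. Psmb10 and Psme1 have 2 probes each, and the other members 1. The groups were L929IRF8 cells given interferon beta (IFNβ) at 1000 U/ml for 4 h, untreated L929IRF8 cells, L929 cells given IFNβ in the same way, and untreated L929 cells, with 2 replicate arrays each. The untreated arrays are entered at 0 h and the IFNβ arrays at 4 h, so an effect of IFNβ and one of time cannot be told apart. L929 is an established mouse fibroblast line, and L929IRF8 is that line with ectopic IRF8, a transcription factor of immune cells. The labels give neither the construct nor its promoter, do not state clonality, and mention no vector control for the parental cells.

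Values are linear intensities in arbitrary units. The size of the lowest deposited value, which lies below 0, was 23.7 and served as the background bound, under which a probe has only an upper limit; probes are called above the bound where their mean over the 8 arrays exceeds it. The 1 Irf8 probe lay between -2.3 and 7.8 on the 8 arrays, under the bound in both lines, and so does not check the label. Of 13 measured fibroblast markers, 8 exceeded the bound on each array (Col1a1, Col1a2, Col3a1, Col5a1, Vim, Pdgfra, Pdgfrb and S100a4) and 5 did not exceed it on any (Thy1, Lox, Postn, Dcn and Lum). Of 9 myeloid markers 7 were under the bound on each array and 0 above it on all. With values below 0 counted as 0, their summed intensity was 40.6 to 41.5 in L929IRF8 with IFNβ and 53.9 to 59.2 in untreated L929IRF8. In L929 it was 53.1 to 77.8 with IFNβ and 49.5 to 67.2 untreated. Most of the summed values lie under the bound, so the sums do not rank the groups. The 4 lymphoid markers were under the bound on each array, and of 6 epithelial and endothelial markers 3 were.

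The proteasome is the barrel-shaped protease that degrades ubiquitin-tagged proteins. Interferons make cells replace its constitutive catalytic subunits, Psmb5, Psmb6 and Psmb7, with Psmb8 (LMP7), Psmb9 (LMP2) and Psmb10 (MECL-1), and the resulting immunoproteasome cuts more peptides of a kind that MHC class I molecules bind. Psme1 and Psme2 encode PA28 alpha and beta, which form a ring that caps the barrel and opens its gate. The exchange is known above all for the response to interferon gamma.

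In the RefSeq gene table Psmb9, Tap1, Psmb8 and Tap2 follow each other on chromosome 17 within the MHC. Psme1 and Psme2 lie on chromosome 14 with only Emc9 between them, and Irf9 stands behind Psme2 with Rnf31 between. Psmb10 lies apart on chromosome 8. Promoter windows of 300 bases (250 before and 50 from the RefSeq start, GRCm38.p6) were found for all 5 members, 6 windows in all because Psme2 has 2 starts. They were searched on both strands for GAAANNGAAA, the interferon-stimulated response element bound by ISGF3 and IRFs, and for TTCNNNGAA, the GAS element bound by STAT dimers. The first occurs in 3.44% and the other in 8.3% of the 32851 mouse windows of this length. The Psme1 window (chr14:55578244-55578543, plus strand) holds the response element on its minus strand at positions 10 to 19, counted from 1 at the RefSeq start. The Psmb8 window (chr17:34197945-34198244, plus strand) holds a GAS match at positions -97 to -89. The other 3 members have neither match in their windows. Variant spellings of these elements and sites outside the windows were not searched, so a missing match does not show that a gene lacks such an element. The Psmb9 window (chr17:34187281-34187580, minus strand) shares 275 bases with that of Tap1, which runs the opposite way. These 3 windows are shown because they hold the matches or the shared start region; capitals mark the matches, and Psmb9 has none.
Psme1: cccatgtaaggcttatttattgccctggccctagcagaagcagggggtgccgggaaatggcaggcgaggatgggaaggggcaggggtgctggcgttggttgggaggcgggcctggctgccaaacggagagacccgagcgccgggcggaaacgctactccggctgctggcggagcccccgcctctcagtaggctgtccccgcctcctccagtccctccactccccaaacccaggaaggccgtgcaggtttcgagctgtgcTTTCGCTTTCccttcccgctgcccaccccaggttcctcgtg
Psmb8: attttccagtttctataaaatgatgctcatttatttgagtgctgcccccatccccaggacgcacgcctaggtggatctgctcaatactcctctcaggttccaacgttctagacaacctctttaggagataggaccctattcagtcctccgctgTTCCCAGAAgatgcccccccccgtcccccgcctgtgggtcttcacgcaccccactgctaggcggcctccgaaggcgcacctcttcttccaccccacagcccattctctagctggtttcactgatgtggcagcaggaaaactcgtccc
Psmb9: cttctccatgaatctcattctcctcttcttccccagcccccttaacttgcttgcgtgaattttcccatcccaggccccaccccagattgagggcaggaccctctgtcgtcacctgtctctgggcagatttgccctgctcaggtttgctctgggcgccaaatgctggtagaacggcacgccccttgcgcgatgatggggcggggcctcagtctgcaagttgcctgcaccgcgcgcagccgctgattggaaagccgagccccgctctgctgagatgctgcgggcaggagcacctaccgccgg

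The first question was how the members respond to IFNβ. In both lines all 7 probes read higher on both IFNβ arrays than on both untreated arrays. Among the 11411 probes above the bound, 12.7% did so in L929IRF8 and 13.7% in L929. By each gene's brightest probe, Psmb9 and Psmb10 rose in both lines in limma's test over all probes, and Psme1 rose in L929. In L929IRF8 the other Psmb10 probe did not pass, and the other Psme1 probe did. Psmb8 and Psme2 had higher values without passing in either line. These arrays measure RNA pooled over a culture, so more RNA per cell and more cells with that RNA cannot be told apart.

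**Figure D1:**
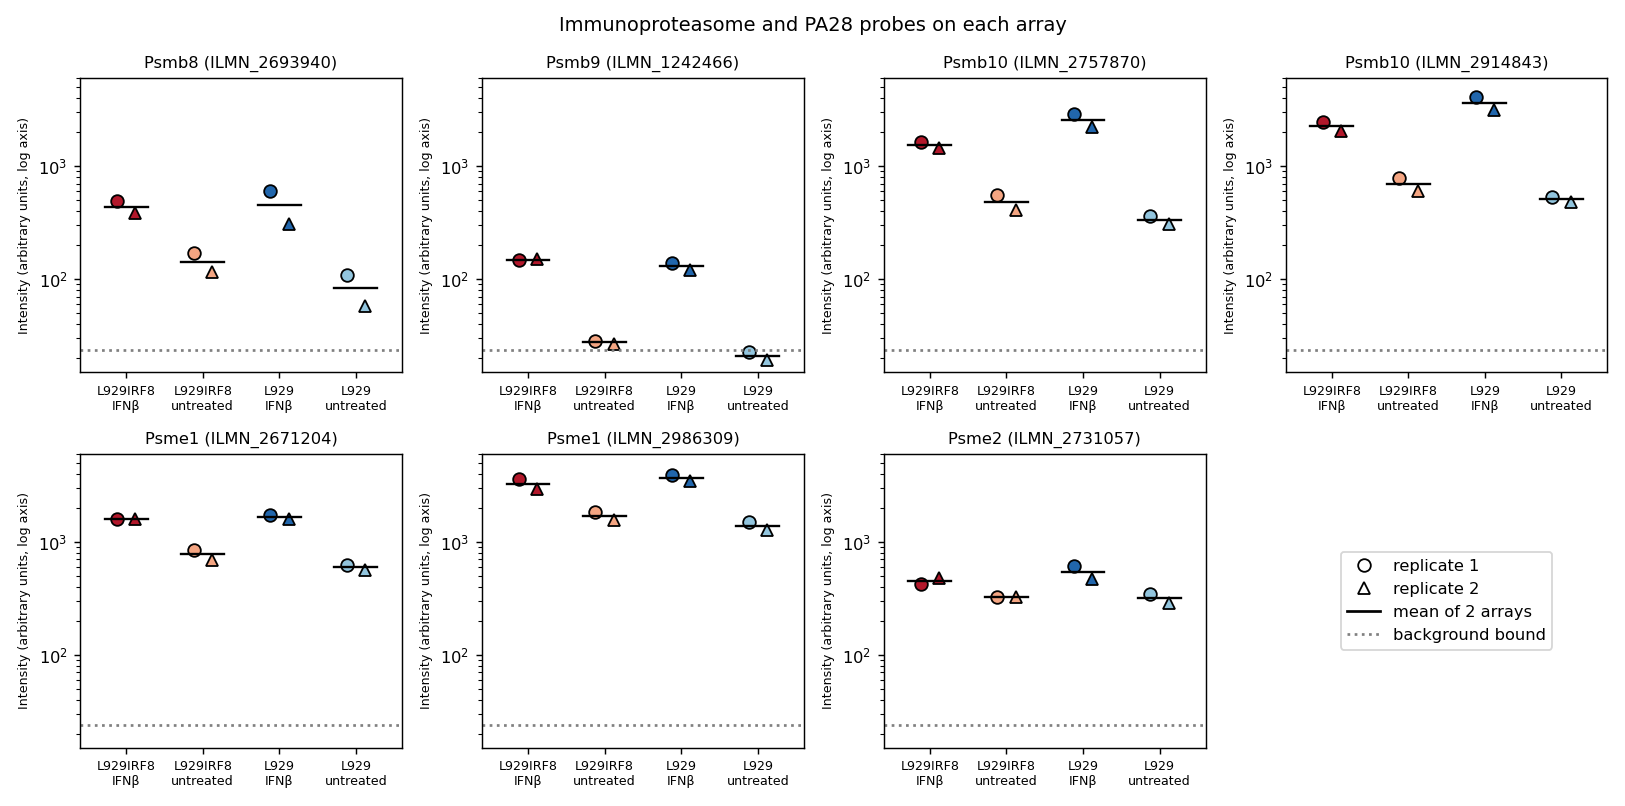
Intensity of the 7 probes on each of the 8 arrays (log axis, arbitrary units), with L929IRF8 in reds and L929 in blues. Circles are replicate 1, triangles replicate 2, bars the mean of 2 arrays and the dotted line the background bound of 23.7. In each panel the IFNβ arrays of a line lie above its untreated arrays.

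Among the catalytic subunits, Psmb10 carries the trypsin-like site. Its brighter probe, ILMN_2914843, read 2473 and 2045 in L929IRF8 with IFNβ, against 779 and 602 in untreated L929IRF8. In L929 it read 4103 and 3136 with IFNβ, against 531 and 485 in untreated cells. The IFNβ arrays of L929 were thus the highest of the 8, and no group overlapped another. The rise was 3.28-fold in L929IRF8 (log2 1.69 ± 0.20, SE, limma adjusted p = 0.0487) and 7.07-fold in L929 (2.78 ± 0.20, adjusted p = 0.0105). The other probe, ILMN_2757870, gave 3.20-fold in L929IRF8 (adjusted p = 0.0648) and 7.64-fold in L929 (adjusted p = 0.0118). Both probes thus had similar changes, and only the L929IRF8 call fell on different sides of the threshold of 0.05.

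Psmb9 replaces the caspase-like subunit Psmb6. It had the smallest standard errors of the 7 probes. It read 147.5 and 149 in L929IRF8 with IFNβ, against 28.4 and 26.6 untreated. In L929 it read 140.2 and 120.0 with IFNβ, against 22.6 and 19.3 untreated, both under the bound. The rise was 5.40-fold in L929IRF8 and at least 5.47-fold in L929. The log2 scale adds 16 intensity units and so understates both the change and the spread of a probe this dim. On that scale the changes were 1.92 ± 0.08 in L929IRF8 (limma adjusted p = 0.00306) and 1.98 ± 0.08 in L929 (adjusted p = 0.00227).

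Psmb8 carries the chymotrypsin-like site in place of Psmb5. It read 487 and 387 in L929IRF8 with IFNβ, against 169 and 115 untreated. In L929 it read 605 and 308 with IFNβ, against 108 and 57.5 untreated. The arrays with and without IFNβ do not overlap in either line, and the L929 arrays with IFNβ lie on either side of the L929IRF8 arrays with IFNβ. The ratio was 3.11 in L929IRF8 (log2 1.53 ± 0.44, limma adjusted p = 0.341) and 5.48 in L929 (2.23 ± 0.44, adjusted p = 0.163). Its 95% intervals, 0.38 to 2.68 in L929IRF8 and 1.08 to 3.38 in L929, are the widest of the 7 probes. With a replicate block the L929 change passed (adjusted p = 0.0346) and the L929IRF8 change did not (0.0773). Replicate 1 read higher than replicate 2 in 4 of 4 groups, as for both Psmb10 probes and the brighter Psme1 probe, and as for 18.1% of the probes above the bound.

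The activator genes had smaller fitted changes than these subunits, a difference that was not tested. With a pseudocount of 64 the Psmb9 change in L929 (1.19) was below that of Psme1 (1.37), but not in L929IRF8 (1.215 against 0.91). Psme1 (ILMN_2986309) read 3642 and 2930 in L929IRF8 with IFNβ, against 1846 and 1580.1 untreated. In L929 it read 3899 and 3457 with IFNβ, against 1497 and 1273 untreated. The values of the lines with IFNβ interleave. The ratio was 1.91 in L929IRF8 (log2 0.93 ± 0.16, limma adjusted p = 0.121) and the rise was 2.66-fold in L929 (1.40 ± 0.16, adjusted p = 0.038). The dimmer Psme1 probe, ILMN_2671204, passed in both lines, with 2.07-fold in L929IRF8 (1.03 ± 0.11, adjusted p = 0.0398) and 2.77-fold in L929 (1.45 ± 0.11, adjusted p = 0.0135). With a replicate block the brighter probe passed in L929IRF8 too (adjusted p = 0.0141).

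Psme2, the partner of Psme1 in the PA28 ring, had the smallest ratio. It read 424 and 476 in L929IRF8 with IFNβ, against 328 and 324 untreated. In L929 it read 610.1 and 469 with IFNβ, against 347 and 289.7 untreated. The IFNβ arrays lie above the untreated arrays in each line and overlap between the lines. The ratio was 1.38 in L929IRF8 (log2 0.44 ± 0.16, limma adjusted p = 0.459) and 1.69 in L929 (0.73 ± 0.16, adjusted p = 0.193).

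Counted by each gene's brightest probe, 2 of 5 members rose in L929IRF8, where 0.864% of all probes did, and 3 of 5 in L929, where 0.996% did. In the mean of both lines' effects 3 of 5 rose (Psmb10 2.24 ± 0.14, Psmb9 1.95 ± 0.06 and Psme1 1.17 ± 0.11 in log2), where 1.49% of all probes did. The other 2 had mean effects of 1.88 ± 0.31 (Psmb8, limma adjusted p = 0.0743) and 0.59 ± 0.11 (Psme2, adjusted p = 0.0998). The size for the dim Psmb9 probe depended on the setting: 1.20 with a pseudocount of 64 and 2.44 with values raised to the bound. For Psmb10 these settings gave 2.15 and 2.27, so the order of Psmb9 and Psmb10 is not fixed. With a replicate block 3 rose in L929IRF8, 4 in L929 and 4 in the mean. The members' median log2 change was 1.53 in L929IRF8 and 1.98 in L929, and over the probes above the bound it was -0.07 and -0.08.

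The Psmb10 call in L929IRF8 was lost without any 1 of the 8 arrays (limma adjusted p 0.0829 to 0.144), as was the Psme1 call in L929 (0.0702 to 0.132), and the Psmb10 call in L929 without either untreated L929 array (0.0552 and 0.0509). Psmb9 passed in both lines without any 1 array (0.00942 to 0.0194), but not with the compared arrays alone (0.0678 in L929IRF8 and 0.112 in L929). The Psme1 mean effect did not pass without either L929 array with IFNβ, either untreated L929 array, or untreated L929IRF8 replicate 2 (0.0508 to 0.0639). The Psme1 call in L929 was also lost when dim values were set to the bound (limma adjusted p = 0.0768). With only the 11411 probes above the bound, 695 probes passed in the mean effect in either direction, all 5 members among them. Psmb8 then passed in L929 (limma adjusted p = 0.0145) and Psme1 in L929IRF8 (0.0356). The mean behind this filter includes the IFNβ arrays, so probes that rise with IFNβ are more easily kept.

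**Figure D2:**
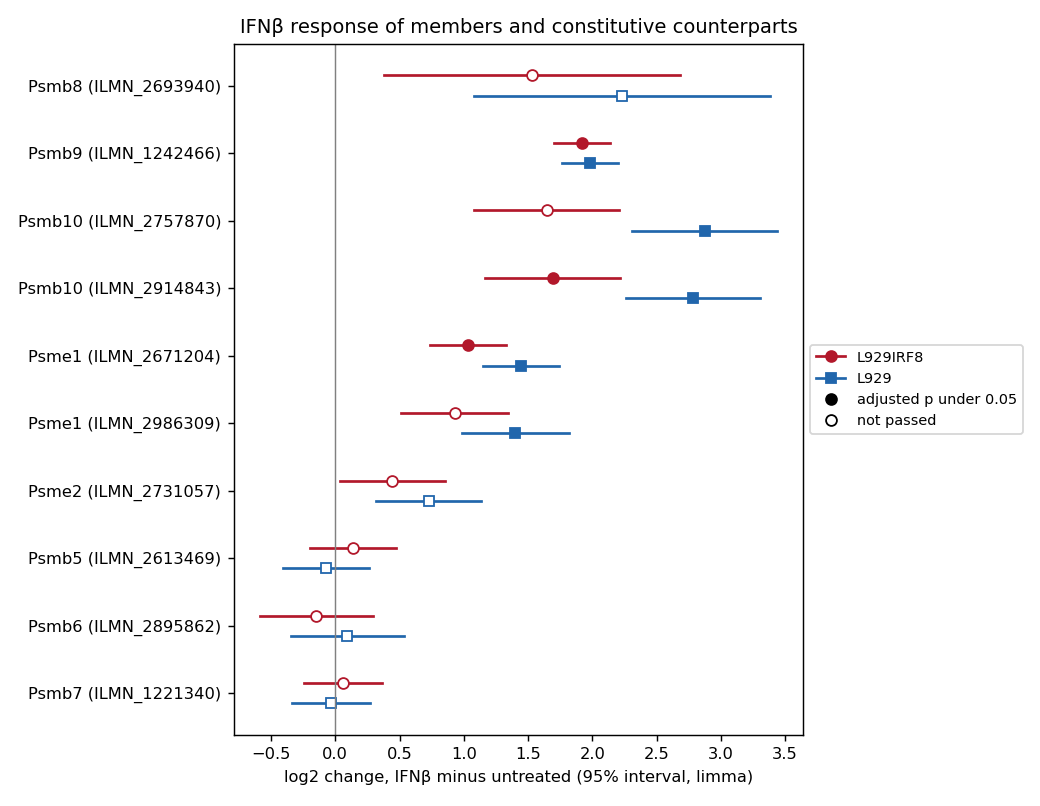
Log2 change with IFNβ (IFNβ minus untreated) and its 95% interval from limma for the 7 member probes and the 3 constitutive counterparts, with L929IRF8 as circles and L929 as squares. Filled symbols passed an adjusted p of 0.05; the member probes lie between 0.44 and 2.88 and the counterparts between -0.15 and 0.13.

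The subunits that the immunoproteasome members replace showed no such change. Psmb5 read 417 and 508 in L929IRF8 with IFNβ, against 399.6 and 437 untreated, and 435 and 478 in L929 with IFNβ, against 448 and 517 untreated. In each line the arrays with and without IFNβ overlapped for Psmb5, Psmb6 and Psmb7. The mean effects of IFNβ over both lines had 95% intervals of -0.21 to 0.27 for Psmb5, -0.34 to 0.29 for Psmb6 and -0.20 to 0.23 for Psmb7 on the log2 scale.

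The log2 distance of each immunoproteasome gene from its counterpart was therefore taken on each array and set to a mean of 0 in untreated L929. For Psmb10 and Psmb7 it was 2.44 and 2.02 in L929IRF8 with IFNβ, 0.89 and 0.31 in untreated L929IRF8, and 3.06 and 2.58 in L929 with IFNβ. For Psmb9 and Psmb6 it was 2.27 and 2.00 in L929IRF8 with IFNβ, 0.14 and 0.00 in untreated L929IRF8, and 2.18 and 1.59 in L929 with IFNβ. For Psmb8 and Psmb5 it was 2.60 and 2.00 in L929IRF8 with IFNβ, 1.21 and 0.60 in untreated L929IRF8, and 2.84 and 1.77 in L929 with IFNβ. In untreated L929 Psmb9 read under the background bound on both arrays, so the reference level of the Psmb9 distances is only a limit. The size of the Psmb9 distances therefore depends on the constant added before log2. For all 3 pairs the IFNβ arrays of both lines lie above the untreated arrays of both lines. As a ratio within an array this shows unequal change of RNA only, and no level of one subunit against another. Whether the subunits were exchanged in the proteasome itself was not measured.

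Of 39 other measured proteasome genes (core, regulator, assembly, counterparts and other activators), 37 were above the bound and 0 passed in limma with IFNβ in either line, in the mean effect, or between the lines. Of all 25697 probes, 276 passed in L929IRF8, 328 in L929, 568 in the mean effect, 4 between the untreated lines and 1 after IFNβ. A count of 0 among 39 genes is near these shares and is not a result about them. At an unadjusted p under 0.05 there were, of the 39 genes, 0 in L929IRF8, 2 in L929, 1 in the mean effect, 3 between the untreated lines, 0 between the lines after IFNβ and 1 in the interaction. Over all 25697 probes the IFNβ counts at that threshold were 2514 in L929IRF8, 2538 in L929 and 3313 in the mean effect. The other all-probe counts were 1419 between the untreated lines, 1283 after IFNβ and 1226 in the interaction. The median mean effect of the 39 genes was -0.04 on the log2 scale, from -0.14 (Psmg1, an assembly chaperone) to 0.14 (Psmd9, another). The alternative activators Psme3 (PA28 gamma) and Psme4 (PA200) had mean effects of -0.14 each, with adjusted p = 0.741 and 0.414 in limma. Pomp, the chaperone on which new proteasomes are built, had log2 values for the IFNβ effect of -0.11 in L929IRF8 (limma adjusted p = 0.764) and 0.21 in L929 (adjusted p = 0.311).

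Downstream of the proteasome, peptides are carried into the endoplasmic reticulum and loaded on class I molecules. Of 12 measured class I loading genes 10 were above the bound. Over all probes 0.864% rose in L929IRF8, 0.996% in L929 and 1.49% in the mean effect. Of the 12 genes 1 rose in L929IRF8 (Nlrc5), 2 in L929 (Nlrc5 and Tap1) and 5 in the mean effect, with 0 lower. These 5 were Tap1 (log2 3.42), the class I transactivator Nlrc5 (2.53), the loading factors Tapbp (2.04) and Tapbpl (1.98), and Tap2, the partner of Tap1, (1.80). Tap1, which shares its start region with Psmb9, read 981 and 601 in L929IRF8 with IFNβ, against 79.7 and 45.8 untreated. In L929 it read 1113 and 674 with IFNβ, against 73.5 and 53.4 untreated. B2m, the light chain of class I, had a mean effect of 0.40 (limma adjusted p = 0.422).

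Of 10 measured interferon signalling genes 8 were above the bound. In each line 4 of the 10 rose and 0 fell: Stat2, Irf9, Irf1 and Irf2. Over all probes 0.864% rose in L929IRF8 and 0.996% in L929. Irf1, a known activator of Psmb9 and Tap1, rose by 2.92 in L929IRF8 (limma adjusted p = 0.0101) and 2.96 in L929 (adjusted p = 0.00853) on the log2 scale. Irf9, the DNA-binding part of ISGF3, rose by 2.92 in L929IRF8 (limma adjusted p = 0.00154) and 3.22 in L929 (adjusted p = 0.00109). Nfe2l1, which drives constitutive proteasome genes when proteasome capacity is short, had a mean effect of -0.05 (limma adjusted p = 0.924).

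**Figure D3:**
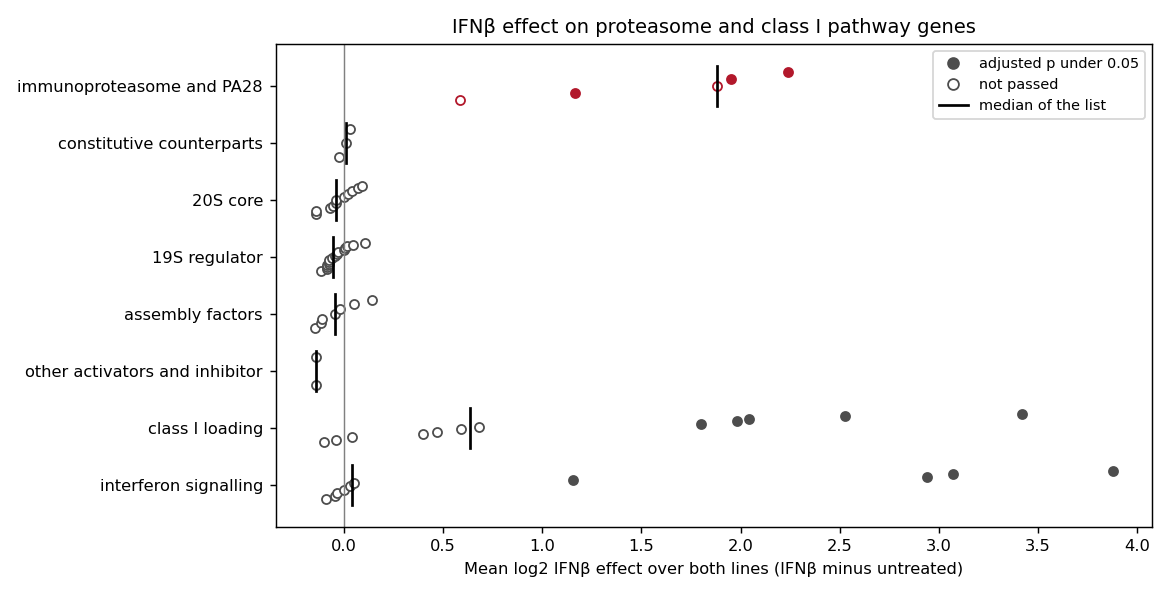
Mean log2 effect of IFNβ over both lines for each measured gene, by list; red points are the immunoproteasome and PA28 genes, filled points passed an adjusted p of 0.05 in limma, and bars mark the list medians. The 5 members have a median of 1.88 and the core, regulator and assembly lists medians between -0.05 and -0.04.

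The next question was whether the lines differ without interferon. For 6 of the 7 probes both L929IRF8 arrays read above both L929 arrays, which 14.8% of the probes above the bound did. Psme2 was the exception, with 328 and 324 in L929IRF8 inside the L929 range of 347 and 289.7. The ratios were 1.77 for Psmb8, at least 1.16 for Psmb9, 1.35 and 1.45 for the Psmb10 probes, and 1.24 and 1.29 for the Psme1 probes. In limma 0 of 5 members passed, where 0.0156% of all probes did, and at an unadjusted p under 0.05 there were 2 of 7 probes (Psmb9 and Psme1 ILMN_2671204), beside 1419 of all 25697, where 1285 would be expected by chance. The log2 differences were 0.71 ± 0.44 for Psmb8 (95% interval -0.44 to 1.86), 0.24 ± 0.08 for Psmb9 (0.02 to 0.45) and 0.42 ± 0.20 for Psmb10 (-0.10 to 0.95), and the smallest adjusted p among the 7 was 0.783. These sizes depend on single arrays: without untreated L929 replicate 2 the difference was 0.33 for Psmb8 and 0.19 for Psme1, without untreated L929 replicate 1 it was 1.08 for Psmb8, and without untreated L929IRF8 replicate 1 it was 0.46 for Psmb8, 0.24 for Psmb10 and 0.19 for Psme1. The Psmb9 difference also depends on the constant added before log2, since both untreated L929 arrays read under the bound. With a pseudocount of 64 it was 0.11. The 7 probes are not independent of each other, since they share arrays and 2 genes have 2 probes.

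After IFNβ this order did not hold. Both Psmb10 probes read lower on both L929IRF8 arrays than on both L929 arrays, which 13.3% of the probes above the bound did. Psmb9 read higher on both, which 12.2% did, and the other 4 probes overlapped. Psmb10 differed by -0.67 ± 0.20 in log2 (95% interval -1.20 to -0.15, limma adjusted p = 0.822) and, by its other probe, by -0.71 ± 0.22 (adjusted p = 0.83). As ratios of L929IRF8 over L929 these are 0.627 and 0.607. In limma 0 of 5 members passed, where 0.00389% of all probes did, and both Psmb10 probes had an unadjusted p under 0.05, as did 1283 of all probes, about the number expected by chance. Psmb8 differed by 0.01 ± 0.44 (95% interval -1.14 to 1.16), an interval wide enough to hold changes of either sign. Without L929 IFNβ replicate 1 that difference was 0.48, without L929 IFNβ replicate 2 it was -0.46, and without L929IRF8 IFNβ replicate 1 it was -0.15.

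**Figure D4:**
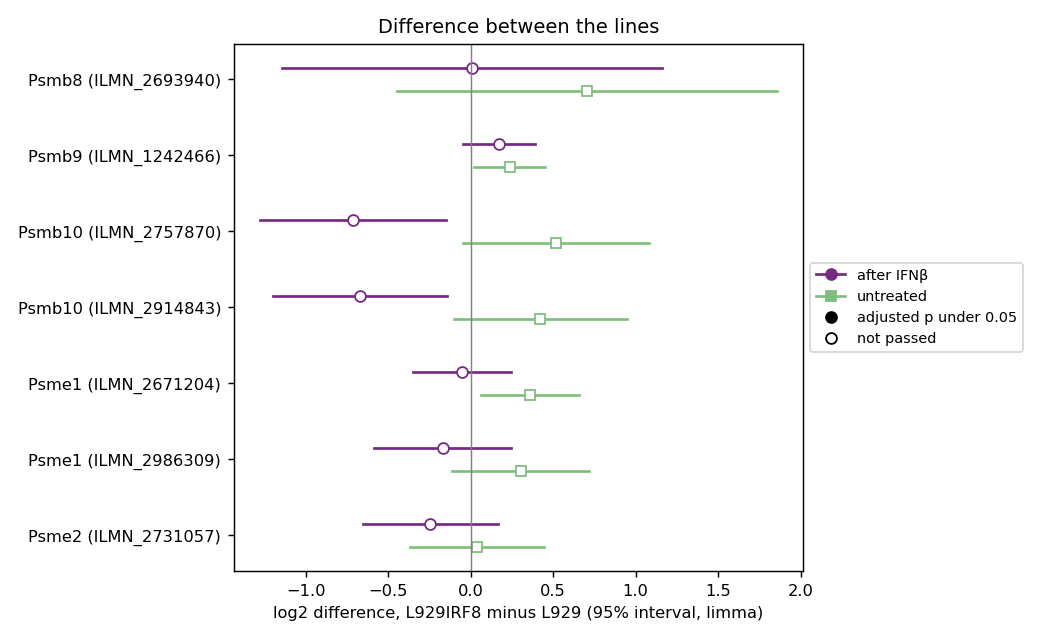
Log2 difference between the lines (L929IRF8 minus L929) with its 95% interval from limma for the 7 probes, after IFNβ as circles and untreated as squares. No symbol is filled, since no difference passed an adjusted p of 0.05; the untreated differences lie between 0.04 and 0.71 and those after IFNβ between -0.71 and 0.17.

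The interaction asks whether the IFNβ effect in L929IRF8 differs from that in L929. All 7 probes had a smaller log2 change in L929IRF8, but for Psmb9 the sign turned with a pseudocount of 64 (0.024), without L929 IFNβ replicate 1 (0.037) and without untreated L929 replicate 2 (0.0011). An interaction below 0 was found in 50.3% of the probes above the bound, and in 66.6% of the 383 probes that rose in the mean of both lines' effects. Psmb10 had the largest, -1.09 ± 0.28 (95% interval -1.83 to -0.35, limma adjusted p = 0.753) and -1.23 ± 0.30 by its other probe (adjusted p = 0.73). Psme1 had -0.47 ± 0.22, Psme2 -0.28 ± 0.22 and Psmb8 -0.70 ± 0.62. Psmb9 had -0.06 ± 0.12, with a 95% interval of -0.37 to 0.24. In limma 0 of 5 members passed, where 0.00389% of all probes did, and at an unadjusted p under 0.05 there were the 2 Psmb10 probes, beside 1226 of all probes, fewer than expected by chance. The interaction is made of the same arrays as the comparisons of the lines, so it is no separate evidence.

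Across the 4 groups, Psmb10 thus ran from L929 with IFNβ through L929IRF8 with IFNβ and untreated L929IRF8 to untreated L929, with no overlap between neighbours. Psme1 had the same order of means, but its IFNβ groups overlapped. For Psmb8 the IFNβ groups overlapped too, and their order depends on the mean taken, with arithmetic means of 437 in L929IRF8 and 456 in L929 and a ratio of geometric means of 1.01. Psmb9 had its highest mean in L929IRF8 with IFNβ, 148 ± 1.20 against 130.1 ± 14.3 in L929 with IFNβ (SD, n = 2 each). For Psme2 the means were 449.8 in L929IRF8 with IFNβ, 326 in untreated L929IRF8, 539 in L929 with IFNβ and 318 in untreated L929, and its untreated groups overlapped. None of these line differences passed.

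Over the 8 arrays the members' log2 values correlated with each other at Pearson r between 0.895 and 0.988, a description of arrays that fall into treated and untreated clusters. Of 7687 other genes above the bound, those closest to the members' mean standardised pattern were Fcgr4 (r = 0.993 over 8 arrays), Ube2l6 (0.991), Vwa5a (0.988), Ccrl2 (0.988), Gvin1 (0.985), Ifi35 (0.985), Rnf135 (0.984), Uba7 (0.984), Idnk (0.983) and Tap2 (0.983). The mean that decides which genes are above the bound includes the IFNβ arrays, so genes that are dim without IFNβ can enter this ranking. Ccrl2, for instance, read 14.1 and 14.7 in untreated L929, under the bound. Ube2l6 and Uba7 encode the conjugating and activating enzymes of ISG15, and Tap2 a peptide transporter subunit. The Fc receptor gene Fcgr4 averaged 1171 in L929IRF8 with IFNβ and 483 in untreated L929IRF8, and 1231 in L929 with IFNβ and 394 in untreated L929. Beside it, 7 of the 9 myeloid markers were under the bound on all 8 arrays, while Lyz2 read between 18.3 and 44.5 and Aif1 between 11.5 and 27.9.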

How the data were processed

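RNA of 8 samples of L929 and L929IRF8 cells was labelled with biotin using an Illumina amplification kit, per the labels' protocols. The deposited values are linear intensities. Of each array's values 28.1% to 28.3% lie below 0 and the sorted arrays differ by at most 1.7 units, so they were taken as background-subtracted and quantile normalized by the authors, and were not normalized again; the software is not given in the sources used here. Quantile normalization hides a change shared by most genes.

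Probes were named from the platform annotation, and promoter windows came from RefSeq (GRCm38.p6). The probe sequences were not in the sources used here, so whether a probe also binds transcripts of other genes was not checked. Negative intensities were treated as 0, and log2 was taken after adding 16. A limma 3.58.1 model (R 4.3.3; 4 residual degrees of freedom, 0.684 prior) with 4 group means covered all 25697 probes, with Benjamini-Hochberg adjustment over all of them and a threshold of 0.05. With 2 arrays in each group, 0.333 is the smallest two-sided p of an exact permutation test, so none is given. Folds are ratios of geometric means with values raised to the bound, "at least" where a group lies under it. A gene with several probes was counted by its brightest. Each gene list is described by counts, medians and ranges, with no set test. The named genes are all members, listed pathway genes that passed or pair with a member, and the 10 genes closest in pattern. Psme3, Psme4, Pomp, Psmg1, Psmd9, B2m and Nfe2l1 fall outside that rule and were chosen from the lists after their values were seen. Alternatives changed the pseudocount, the treatment of dim values, the scaling, the spread model, the arrays fitted and the averaging of probes.

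Arrays of the same replicate number deviated together from their group means (Pearson r 0.441 to 0.523 for the 6 pairs of groups, over 11411 probes), so a replicate block was run as an alternative and is given where it changes a call. The labels number the replicates without saying what a number shares or whether they came from separate cultures, so p-values measure only the spread between these arrays, which may be technical. The members and lists were chosen with earlier results of these data known. The fit was tested on simulated data in which each array varied independently. That test does not show how the fit behaves when arrays of a replicate number deviate together, as they did here. The number of arrays limits the precision of each value.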

Additional observations from a re-analysis of the deposited data

How the results depend on the processing

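Of 470 recomputed log2 values of the members, 425 kept their direction and side of the threshold, 32 no longer passed, 7 newly passed and 6 changed sign, none of the last being called. The sign changes were Psmb9's interaction with a pseudocount of 64 (0.024) and when 1 array was left out (-0.16 to 0.037), Psmb8's difference after IFNβ (-0.46 to 0.48) and Psme2's untreated difference (-0.085 to 0.16). Members called in L929IRF8 fell to 1 with a pseudocount of 64, with values raised to the bound and with the mean over a gene's probes. In L929 the number fell to 2 with values raised to the bound. It fell to 0 in L929IRF8 and 0 in L929 with the compared arrays alone, a fit with fewer samples. Over all probes that fit called 1 probe in L929IRF8 and 9 in L929. With the 11411 probes above the bound, 5 members rose in the mean effect, among 695 probes called. Counts of probes called in this section include both directions. Leaving out 1 array gave 1 member in L929IRF8, 1 to 2 in L929 (1 without either untreated L929 array) and 2 to 3 in the mean effect. The counts over all probes were then 135 to 526 in L929IRF8, 217 to 469 in L929, 0 to 264 between untreated lines, 0 to 266 after IFNβ and 0 to 142 for the interaction; the lone array left in a group is assumed to vary like the others. Raising values to the bound called 170 probes in L929IRF8, 182 in L929, 348 in the mean effect, 6 after IFNβ and 8 for the interaction. Averaging probes, which tests fewer features, called 182 genes in L929IRF8, 1 between untreated lines, and 0 after IFNβ and for the interaction. An intensity trend called 19 between untreated lines, 19 after IFNβ and 11 for the interaction. The untreated comparison had 0 calls with a pseudocount of 64, median centring, a replicate block, the compared arrays alone or probes above the bound. After IFNβ there were 0 with the block, the compared arrays or probes above the bound, and for the interaction 0 with median centring, the block or probes above the bound. In none of these was a member called between the lines or in the interaction. The replicate block changed no member's call other than those given with the results. The cause of these shifts was not tested unless stated. Dim probes such as Psmb9's untreated values are limited by the background bound.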
